A study of Homo sapiens with 6 samples.

Results

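The 3 arrays described here hold RNA pulled down by its 5′ cap from MOLT-4 cells that carried an empty vector, called mock by the labels. MOLT-4 is an established human line of T-cell acute lymphoblastic leukaemia (T-ALL). They are 3 of the 6 arrays of a series whose other 3 come from cells given the RNA decapping enzyme NUDT16, and no contrast with those was made. For each sample, 20 µg of total RNA from mock-transfected cells went into an immunoprecipitation of transcripts with a 7-methylguanosine (m7G) or trimethylguanosine (m3G) cap, and the eluate was copied into cDNA, labelled with Cy3 and hybridised to a 1-colour Agilent array. The labels do not say whether the replicates came from separate cultures, which primer made the cDNA, or whether the cells were a clone. No input or unbound RNA of these cells was analysed here, so the values describe what was in the eluate and not what share of a transcript was bound. With 1 group of 3 arrays there is no comparison between conditions and no p-value. The spread between the 3 arrays may be technical.

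A gene was counted as detected where at least 1 of its probes was well above background on all 3 arrays, and its brightest such probe stood for it. Of 36335 gene names on the array, 13703 (37.7%) were detected in this way, and 16282 (44.8%) had no probe above background on any array. Of 18192 names matched to a protein-coding gene of RefSeq, 9904 (54.4%) were detected. Levels are given as log2 signal relative to each array's 75th percentile, so that a level of 0 is the 75th percentile of the array. They ran from -2.78 to 10.77 with a median of 0.98, and the median SD over the 3 arrays was 0.67. Genes are also placed by percentile, from 0 for the lowest to 100 for the highest mean signal among detected genes. The signal depends on the probe as well as on the RNA. In 3002 genes with at least 2 detected probes, the probes of a gene lay a median of 1.60 log2 units apart, and in 66.6% of them the range was over 1. Ranks therefore describe signal on this array and are not an order of RNA abundance. The arrays held 58345 to 58408 usable spots for cell RNA, of which 49.5%, 39.1% and 51.0% were well above background on replicates 1, 2 and 3, and no spot was saturated. The number of arrays limits the precision.

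RNA polymerase II transcripts receive an m7G cap soon after synthesis begins, and this cap is bound by the nuclear cap-binding complex and later by the initiation factor eIF4E. The small nuclear RNAs (snRNAs) of the spliceosome that polymerase II makes, U3 RNA and telomerase RNA have their cap methylated further to m3G by TGS1. Ribosomal RNA, RNAs made by RNA polymerase III, RNAs made in mitochondria and small nucleolar RNAs (snoRNAs) cut from introns do not receive an m7G cap. Cap removal by DCP2, NUDT16 and related enzymes exposes the 5′ end to exonucleases such as XRN1.

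Messenger RNAs of the translation machinery and of histones took most of the highest places. Among the 100 gene names with the highest signal, 43 were cytosolic ribosomal proteins and 12 were replication-dependent histones. A further 15 were probes without a gene name. The rest included 4 transcripts named XLOC_l2, 3 named only by an Ensembl transcript, 2 m3G-capped RNAs, 28S ribosomal RNA, the polymerase III RNA RN7SL1 and the long noncoding RNA MALAT1. The highest level belonged to RPS2, a protein of the small ribosomal subunit, at 10.45, 11.63 and 10.22 on replicates 1 to 3 (10.77 ± 0.75, SD, n = 3). HIST1H3D (now H3C4), which encodes histone H3, stood at 9.90, 11.72 and 10.16. PTMA, which encodes the chromatin-associated acidic protein prothymosin alpha, stood at 9.90, 11.48 and 10.21, and its 6 probes ranged from 7.77 to 10.53. Replicate 2 gave the highest value for each of the 20 leading names. On that array the 75th percentile itself was at a signal of 91.7, against 282 and 249.9 on the other two, so levels relative to it are raised for bright genes. Of the 20, RPS2, RPS18, RPS21, RPS27, RPL9, RPL13 and RPL41 encode ribosomal proteins, and HIST1H3D, HIST1H4C and HIST1H4E encode core histones. Beside PTMA, the remaining leaders were RNU4ATAC, RN28S1, RN7SL1, PQLC2, ZNF865, GPR155, the unnamed probe A_33_P3396434 and the transcripts ENST00000381105 and ENST00000448179. The only PQLC2 probe shares a run of 20 bases with a probe of LOC494150 (8.83). The GPR155 probe shares 21 bases with a FAM74A4 probe (10.02), and the RPL9 probe shares 21 with the unnamed probe A_24_P375599 (10.03). What such shared runs add to the signal was not tested.

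**Figure D1:**
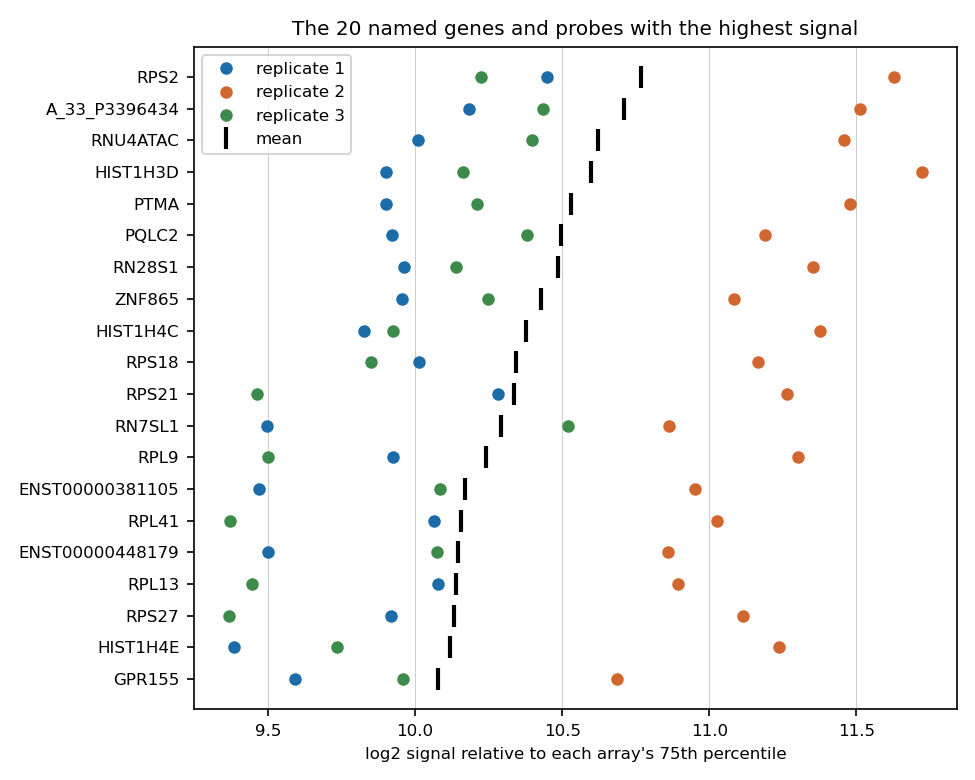
Log2 signal relative to each array's 75th percentile for the 20 named genes and probes with the highest mean signal, with a point for each replicate and a bar for the mean. Replicate 2 lies highest in every row, from 10.69 for GPR155 to 11.72 for HIST1H3D.

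Cytosolic ribosomal protein mRNAs formed the highest list. Of 79 on the array, 78 were detected, at a median percentile of 99.3. All 78 lay above percentile 90 and 55 above percentile 99. RPS18 stood at 10.01, 11.16 and 9.85 (10.34 ± 0.72), and RPS21 at 10.28, 11.27 and 9.46 (10.34 ± 0.90). The lowest detected members were RPS3 at 6.18 ± 0.67 and RPL22 at 6.28 ± 1.11. RPL27A was above background on 2 of the 3 arrays. Probes of a ribosomal protein gene, some of them designed on other transcripts of it, did not all read alike: the 6 RPS2 probes ranged from 1.49 to 10.77 and the 3 RPS21 probes from -0.05 to 10.34. Many of these genes also have near-identical processed pseudogenes, so their signals are uncertain to that extent.

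Other parts of the translation machinery were detected nearly throughout but ranked lower. All 18 members of the list named for elongation factors and other terminal oligopyrimidine (TOP) mRNAs were detected, at a median percentile of 97.1. Not every member had such a start in RefSeq, as given below. EEF1A1, which delivers aminoacyl-tRNA to the ribosome, stood at 8.62, 8.78 and 8.45 (8.62 ± 0.17), and its partner EEF1G at 8.84 ± 0.18. EEF1B2, the exchange factor of the same complex, spread more widely, at 8.08, 9.38 and 7.99. EEF1E1 was the lowest of the list at 3.04 ± 1.43. Of 54 genes with an EIF name, 50 were detected at a median percentile of 83.0, led by EIF3C at 7.90 ± 0.12 and EIF1 at 7.59 ± 0.72. Not all of these are initiation factors: the list also holds the Argonaute genes EIF2C1 to EIF2C4, the kinases EIF2AK1 to EIF2AK4 and the pseudogene EIF3IP1. Mitochondrial ribosomal proteins, which are made from nuclear genes, were all detected (76 of 76) at a median percentile of 83.0, led by MRPS16 at 7.42 ± 0.63. Their median lay well below that of the cytosolic ribosomal proteins on every array.

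**Figure D2:**
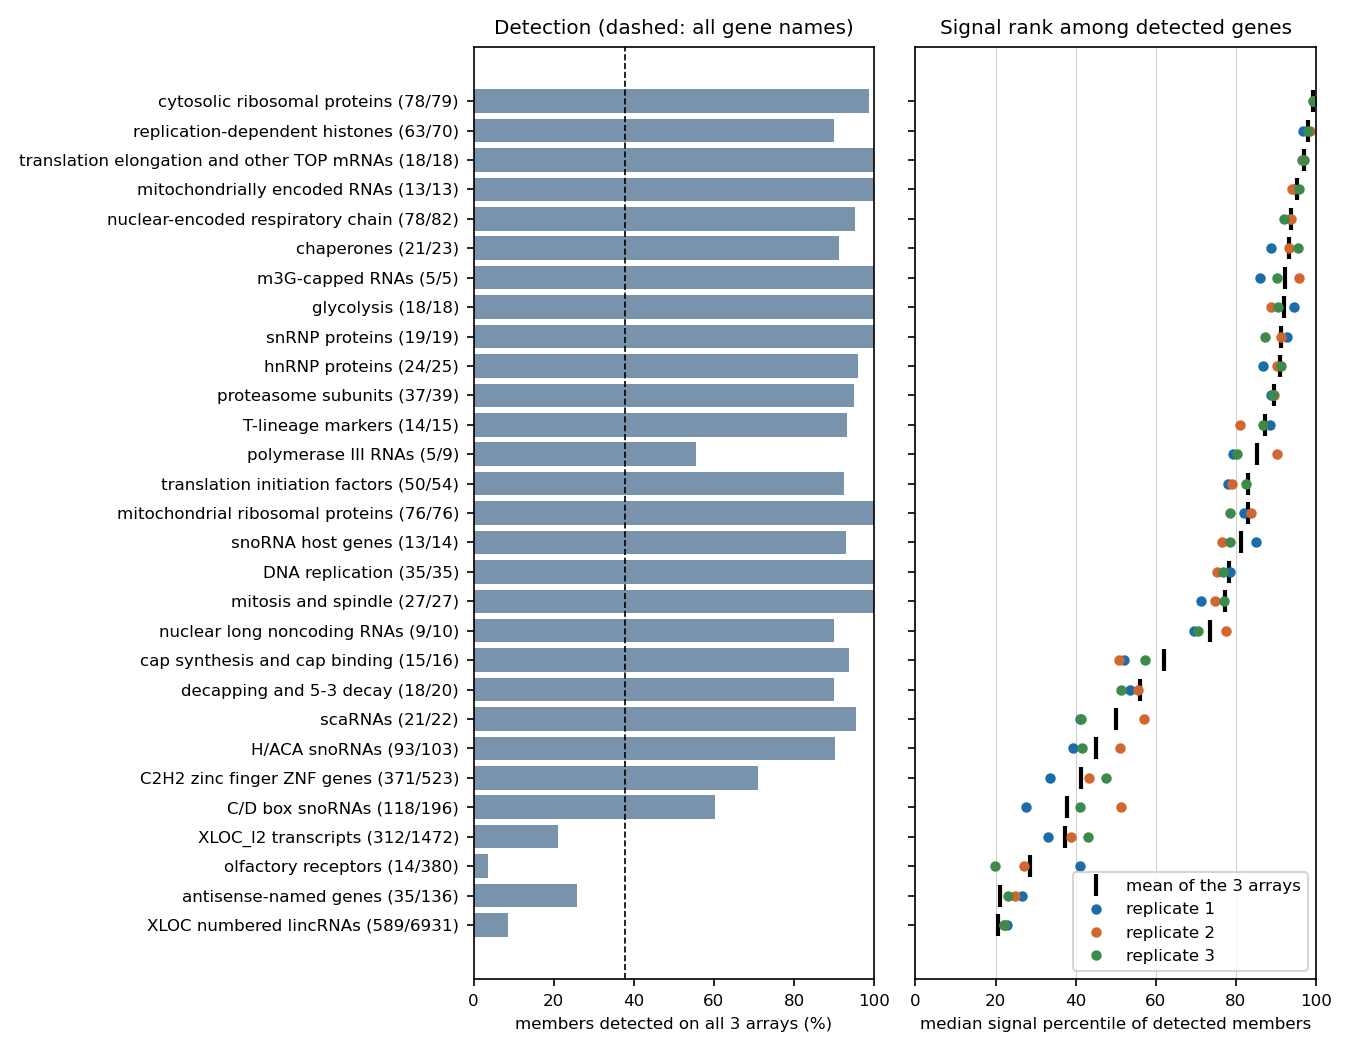
Left, the percentage of each list's members detected on all 3 arrays, with counts beside the names and a dashed line at the 37.7% of all gene names. Right, the median signal percentile of the detected members, by replicate (points) and for the 3-array mean (bars), which runs from 99.3 for cytosolic ribosomal proteins to 20.7 for numbered XLOC transcripts.

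TOP mRNAs begin with a C at the capped base followed by a run of pyrimidines, a start that couples their translation to growth signals. The windows below come from RefSeq (GRCh38.p14) and show 10 bases before the annotated first base and 20 from it. Capitals mark the unbroken run of pyrimidines (C or T) from that base, where it starts with C and is followed by at least 4 more. The first 6 genes had such a start and the other 4 highly ranked genes did not. EEF1G and EEF1B2, whose windows are not shown, had no such run either.
RPS18, chr6:33272065-33272094, plus strand: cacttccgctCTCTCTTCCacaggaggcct
RPS21, chr20:62387093-62387122, plus strand: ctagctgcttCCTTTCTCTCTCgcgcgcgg
RPL41, chr12:56116623-56116652, plus strand: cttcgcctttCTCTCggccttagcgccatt
RPS27, chr1:153990752-153990781, plus strand: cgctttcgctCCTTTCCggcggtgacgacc
EEF1A1, chr6:73521013-73521042, minus strand: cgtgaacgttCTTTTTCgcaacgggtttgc
PTMA, chr2:231708515-231708544, plus strand: ccgcgtgagtCCCCCactggctgctctgaa
RPL13, chr16:89560647-89560676, plus strand: tgctatcatcccagagtgcattgcggggcc
RPL9, chr4:39458903-39458932, minus strand: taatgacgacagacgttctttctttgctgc
GAPDH, chr12:6535254-6535283, plus strand: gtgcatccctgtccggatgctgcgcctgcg
LDHA, chr11:18394553-18394582, plus strand: ccagctcagagtgctgcagccgctgccgcc

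Starts of this kind were more frequent among genes above percentile 90 by signal. Of 6380 protein-coding genes with a RefSeq start that were not detected on all 3 arrays, 3.37% began with C and 4 pyrimidines. The share was 4.22% of the genes up to percentile 25, 5.04% from 25 to 50, 4.68% from 50 to 75 and 5.51% from 75 to 90. It was 8.26% from 90 to 95 and 14.5% from 95 to 99. Above percentile 99 it was 41.0% (34 of 83 genes). Across all 27305 starts in the RefSeq table it was 4.04%. The share among the top percentile was 42.5%, 39.0% and 38.0% when genes were ranked on replicates 1, 2 and 3 alone. Much of it came from known members: 43 of 63 ribosomal protein genes with an entry (68.3%) and 9 of 13 of the listed TOP genes had such a start. Without both lists the share was 9.63% from percentile 95 to 99 and 10.3% (4 of 39) above 99. Replication-dependent histones, also high in signal, had 1 such start in 62. Lists of lower rank differed among themselves: snoRNA hosts had 3 in 12 and genes with an EIF name 8 in 45. Glycolytic genes and proteasome subunits had 0 in 17 and 0 in 34. The annotated first base may differ from the one used in MOLT-4 cells, and a start without this run says only that the letters are not there.

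**Figure D3:**
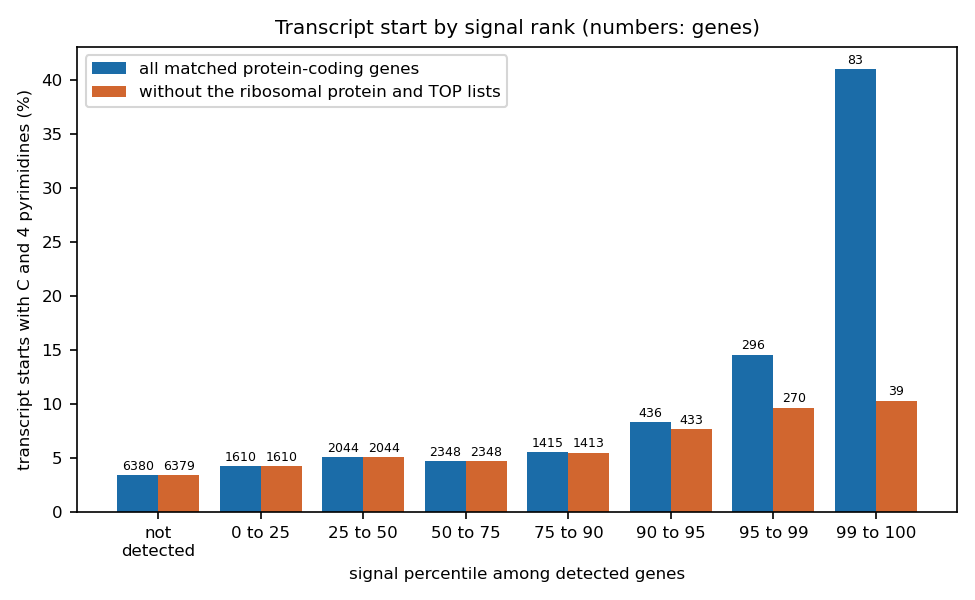
Percentage of protein-coding genes whose RefSeq transcript starts with C and 4 pyrimidines, by signal percentile, with the number of genes above each bar. Blue bars, all matched genes, reach 41.0% above percentile 99; orange bars, without the ribosomal protein and TOP lists, reach 10.3%.

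Histone mRNAs of the replication-dependent clusters end in a stem-loop in place of a poly(A) tail and accumulate in S phase. Of 70 on the array, 63 were detected at a median percentile of 98, and 18 lay above percentile 99. All 5 histone types were represented: H3 led with 13 of 13 members detected at a median percentile of 99, followed by H1 (4 of 6, 98.9), H4 (14 of 15, 98.7), H2A (16 of 17, 97.1) and H2B (16 of 19, 94.5). HIST1H4C (now H4C3) stood at 9.82, 11.38 and 9.93 (10.38 ± 0.87), and HIST2H2AB (now H2AC21) at 8.50, 10.94 and 9.16 (9.53 ± 1.26). The linker histone HIST1H1C (now H1-2) stood at 8.17, 10.01 and 8.76. HIST1H1A and the testis histones HIST1H1T and HIST1H2BA were among 6 with no signal above background on any array. Other testis histones were detected: HIST3H3 stood at 8.15 ± 0.81 and HIST1H2AA at 0.91 ± 1.60. Replacement histones, whose mRNAs are polyadenylated, had 9 of 11 members detected at a median percentile of 95.6, led by H3F3A (now H3-3A) at 8.42, 10.18 and 8.53. Coding sequences of clustered histones are closely alike, so probes may share signal.

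RNAs with an m3G cap were all detected (5 of 5, median percentile 92.2). The probes of the 2 with the highest signal, of telomerase RNA and of a transcript without a cap, 28S ribosomal RNA, are given here in hg19 coordinates of the array file, to show which part of each locus was read. The lines give the probe sequence with no bases marked.
RNU4ATAC, A_21_P0000503, chr2:122288526-122288585: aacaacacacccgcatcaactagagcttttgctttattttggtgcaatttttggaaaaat
RNU4ATAC, A_33_P3839897, chr2:122288790-122288849: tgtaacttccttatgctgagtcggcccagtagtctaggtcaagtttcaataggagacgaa
SNORD3B-1, A_33_P3252333, chr17:18965252-18965311: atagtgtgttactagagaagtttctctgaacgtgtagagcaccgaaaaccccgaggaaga
SNORD3B-1, A_33_P3226542, chr17:18965382-18965441: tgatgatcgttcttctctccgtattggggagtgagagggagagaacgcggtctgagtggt
RN28S1, A_33_P3346552, chrUn_gl000220:117028-117087: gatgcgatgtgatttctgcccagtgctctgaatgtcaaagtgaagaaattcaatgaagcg
TERC, A_33_P3245248, chr3:169482636-169482695, minus strand: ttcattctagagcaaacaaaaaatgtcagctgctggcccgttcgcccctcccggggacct

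RNU4ATAC, the U4atac snRNA of the minor spliceosome, stood at 10.01, 11.46 and 10.40 (10.62 ± 0.75) by the first of these probes. The second carries the same gene name but was designed on an expressed sequence tag and lies past the 3′ end of U4atac, so it is no second reading of that RNA; it read 0.62, 2.26 and 1.78 (1.55 ± 0.84). SNORD3B-1, a copy of the U3 RNA that guides pre-ribosomal RNA cleavage, stood at 9.16, 10.72 and 9.67 (9.85 ± 0.80) by its first probe and at 8.23 ± 1.88 by its second. TERC, the RNA template of telomerase, stood at 4.15, 6.02 and 4.34 (4.84 ± 1.03). The minor spliceosome RNAs RNU11 and RNU12 stood at 5.10 ± 1.57 and 4.13 ± 1.30. Looked up after the values were seen, RNU1-5 and RNU2-2, named for the U1 and U2 snRNAs, stood at 7.96 ± 1.76 and 6.63 ± 1.12. RNU6ATAC, a polymerase III product without an m3G cap, stood at 0.23 ± 0.81, at percentile 36.8.

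Several RNAs that do not carry an m7G or m3G cap nevertheless gave signals as high as those of abundant mRNAs. All 3 ribosomal RNAs were detected: RN28S1 stood at 9.96, 11.35 and 10.14 (10.48 ± 0.76) by its brightest probe, and its 4 probes ranged from 8.30 to 10.48. RN18S1 stood at 6.98 ± 1.15 and RN5-8S1 at 6.35 ± 1.49. Of the polymerase III RNAs, RN7SL1, the RNA of the signal recognition particle, stood at 9.50, 10.86 and 10.52 (10.29 ± 0.71). RN7SK, a regulator of transcription elongation that has a methyl group on its terminal phosphate, stood at 8.50 ± 1.07. RPPH1 and RMRP, the RNAs of RNase P and RNase MRP, stood at 3.79 ± 1.08 and 2.27 ± 0.87. None of the 4 vault RNAs was detected on all 3 arrays, but only 1 of them, VTRNA1-2, was above background on no array. All 13 mitochondrially encoded mRNAs were detected at a median percentile of 95.3, from ND5 at 2.32 ± 0.75 to ND4L at 8.62 ± 0.44. Of the cytochrome oxidase subunits, COX1 stood at 7.70, 7.80 and 7.63 (7.71 ± 0.09), COX2 at 7.07, 6.06 and 6.39 and COX3 at 6.77 ± 0.30. The widest spread among the 13 was in ND6, a subunit of complex I, at 3.00 to 5.86. How these RNAs came to be in the eluate was not tested.

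Small nucleolar RNAs were detected in a larger share than all gene names, and their median ranks lay near or below the middle of the detected genes. Of 196 C/D box snoRNAs, which guide ribose methylation, 118 (60.2%) were detected at a median percentile of 37.8, and of 103 H/ACA snoRNAs, which guide pseudouridylation, 93 were detected at 45.1. The scaRNAs of Cajal bodies had 21 of 22 members detected at 50.2. These ranks depend on what counts as detected: where a spot had only to be positive and significant, which adds dim genes, the medians were 53.0, 60.01 and 64.7. U3 aside, the highest C/D members were SNORD104 at 6.56, 9.18 and 6.66 (7.47 ± 1.48) and SNORD105B at 5.16, 8.47 and 4.28 (5.97 ± 2.21), each far above the other arrays on replicate 2. SNORA57 stood at 6.87 ± 1.79 and SCARNA17 at 7.35 ± 1.49. The tandem copies SNORD113 to SNORD116, which come from imprinted loci, made up most of the silent members: 8 of 60 were detected and 45 were above background on no array. Of the other 136 C/D box snoRNAs, 110 (80.9%) were detected and 8 were above background on none. This split was made after the values were seen. The host transcripts from which snoRNAs are cut are capped, and 13 of 14 were detected at a median percentile of 81.2. SNHG5 stood at 7.57, 9.07 and 6.91 (7.85 ± 1.11), and GAS5 at 7.13, 7.58 and 5.99.

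Long noncoding RNAs ranged from among the highest signals to mostly undetected. Of 10 nuclear long noncoding RNAs listed, 9 were detected at a median percentile of 73.6. MALAT1, a nuclear speckle RNA, stood at 7.87, 10.15 and 9.68 (9.23 ± 1.21) by the brightest of 8 probes, which ranged from 0.51 upward. TUG1 stood at 4.59 ± 0.92, MIAT at 3.90 ± 0.50, and the paraspeckle RNA NEAT1 at 1.19 ± 0.60. In the XLOC, LINC and antisense lists the detected shares fell below the 37.7% of all names. The coding potential of XLOC_l2 transcripts is uncertain. They were 8.50% for the numbered XLOC transcripts (589 of 6931, median percentile 20.7), 21.2% for XLOC_l2 transcripts (312 of 1472, 37.3), 22.6% for LINC genes (30 of 133, 40.3) and 25.7% for genes with an antisense name (35 of 136, 21.0). Single members still ranked high, such as XLOC_l2_005557 at 9.66 ± 0.68 and XLOC_003181 at 8.24 ± 0.59. The highest antisense names were C17orf76-AS1 (now SNHG29) at 6.83 ± 0.92, HLA-F-AS1 at 6.76 and ZNFX1-AS1 (now ZFAS1) at 6.37 ± 1.08; SNHG29 and ZFAS1 are snoRNA hosts. Sense and antisense RNA cannot be told apart where the labelled strand is not stated.

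The eluate carried the mRNAs of T cells. Of 15 T-lineage markers, 14 were detected (93.3%, against 54.4% of protein-coding names) at a median percentile of 87.2. CD7 was above background on 2 arrays. CD3D, a chain of the T-cell receptor complex, stood at 8.38, 8.88 and 7.86 (8.37 ± 0.51), and its partner CD3G at 5.28, 6.31 and 5.96. LAT, an adaptor of receptor signalling, stood at 7.73, 6.92 and 6.07, and the kinase LCK at 6.06, 4.55 and 4.72. The transcription factor TCF7 stood at 4.71 ± 0.59, CD4 at 3.69 ± 0.44 and CD8A at -0.67 ± 0.71. Of 14 genes of immature thymocytes and T-ALL, 8 were detected (57.1%, near the 54.4% of protein-coding names). DNTT, the terminal transferase of immature lymphocytes, was steady at 2.80, 2.69 and 2.70, and the thymocyte antigens CD1B and CD1A stood at 2.63 ± 0.80 and 1.95 ± 0.43. LMO2 stood at 2.25 ± 0.60 and TAL1 at -1.03 ± 0.62, while LYL1, TLX1 and TLX3 were above background on no array. In bulk RNA, fewer cells with a transcript and less of it per cell cannot be told apart.

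Markers of other lineages were detected in 0 to 2 genes of each list. No member of the myeloid (7 genes), fibroblast (5) or hepatocyte (5) lists was detected on all arrays. Of 7 B-cell markers, 2 were detected (28.6%, against 37.7% of all names and 54.4% of protein-coding names). CD79A stood at 2.85 ± 0.12, at percentile 76.7, and MS4A1, PAX5 and EBF1 were above background on no array. Of 6 erythroid markers, 2 were detected (33.3%, below the 54.4% of protein-coding names), with HBG1 at percentile 10.8. HBB was above background on no array. NKG7 was the only detected one of 5 NK markers (20%), at percentile 28.4, and KRT8 and KRT18 were detected among 6 epithelial markers (33.3%) at 64.5 and 43.0. Olfactory receptors, which serve smell, had 14 of 380 genes detected (3.68%), against 37.7% of all names and 54.4% of protein-coding names. Keratin-associated proteins had a larger share, 21 of 88 (23.9%), with KRTAP2-4 the highest at percentile 85.7.

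Antigen presentation divided by class. The class I heavy chains HLA-B and HLA-C stood at 5.61 ± 0.86 and 6.38 ± 0.80, and their light chain B2M at 5.45, 6.65 and 4.76. Class I heavy chains are closely alike, so the signal named HLA-G (6.11 ± 0.82) is uncertain. CALR, a chaperone of their loading complex, stood at 7.60 ± 0.57. Of the class II pathway, HLA-DRA, HLA-DQA1 and CD74 were above background on no array, and HLA-DRB1 stood at -0.04 ± 0.09. Among interferon response genes 26 of 30 were detected (86.7%, against 54.4% of protein-coding names), at a median percentile of 46.4. The highest were ISG15 at 4.79 ± 0.94 and IFITM1 at 4.58 ± 0.60. Of 21 immediate-early genes 11 were detected (52.4%, near the 54.4% of protein-coding names). They were led by IER2 at 7.45, 7.08 and 6.23 and MYC at 3.95, 3.27 and 3.32. FOSB, EGR3 and NR4A1 were above background on no array.

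**Figure D4:**
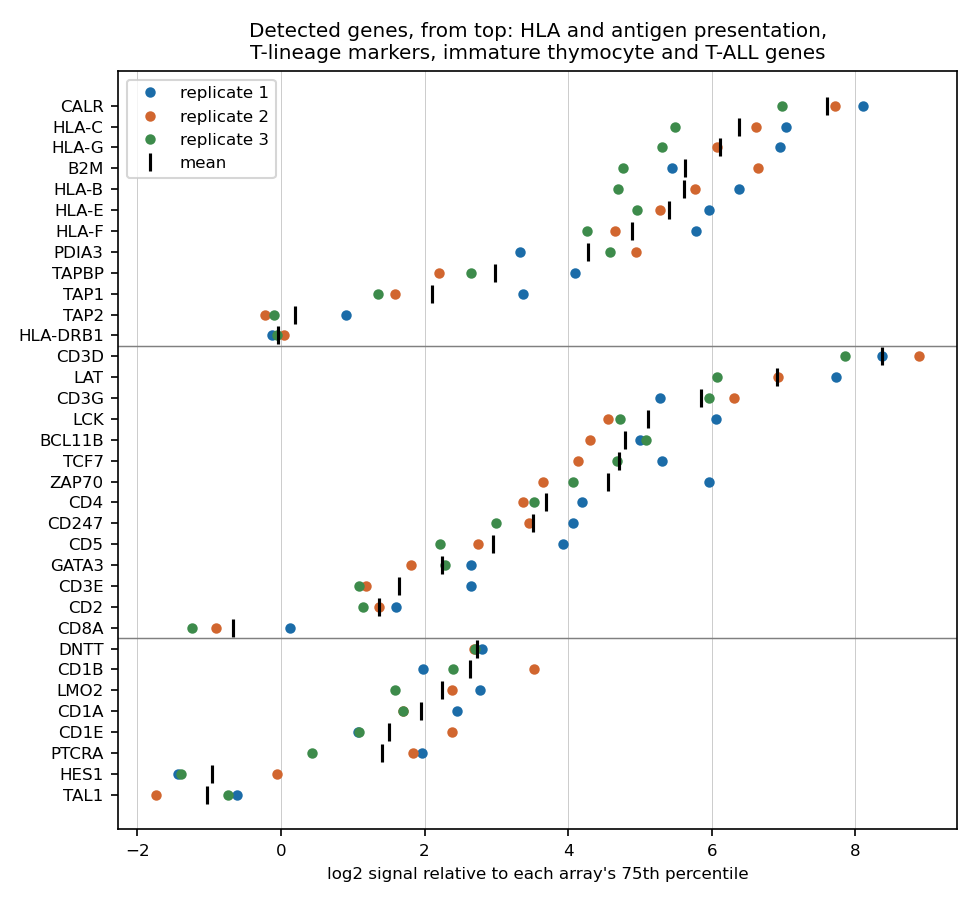
Log2 signal relative to each array's 75th percentile for detected genes of antigen presentation (top), T-lineage markers (middle) and immature thymocyte and T-ALL genes (bottom), with a point for each replicate and a bar for the mean. CD3D is the highest of the T-lineage markers at 8.37, and TAL1 the lowest of the bottom group at -1.03.

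The mRNAs of energy supply and growth ranked high. Of 82 nuclear-encoded respiratory chain genes, 78 were detected at a median percentile of 93.8, led by the ATP synthase subunit ATP5E (now ATP5F1E) at 8.12, 10.23 and 7.59. The 18 glycolytic genes were all detected at 92.0. GAPDH stood at 8.82, 8.55 and 7.69 (8.35 ± 0.59), LDHA at 7.81, 8.71 and 8.07 (8.20 ± 0.46) and LDHB at 7.58 ± 0.45, with the glucose transporter SLC2A1 lowest at 1.54 ± 0.73. Proteasome subunits (37 of 39, median percentile 89.4) were led by PSMD2 at 7.68 ± 0.13. Chaperones (21 of 23, 93.1) were led by HSP90AA1 at 8.08 ± 0.40, and CCT5 was above background on no array although 7 other subunits of the same ring, the chaperonin TRiC, lay between 1.86 (TCP1) and 6.93 (CCT7). Cell division genes were detected throughout: 35 of 35 for DNA replication (78.3), led by MCM7 of the replicative helicase at 8.10 ± 0.52, and 27 of 27 for mitosis (77.4), led by PTTG1 at 6.58, 7.14 and 5.78. Splicing proteins lay between, with 19 of 19 snRNP proteins at 91.2, 24 of 25 hnRNP proteins at 91.0 and 11 of 12 SR proteins at 89.1. Zinc finger genes named ZNF were detected in a larger share (371 of 523, 70.9%) than all names or protein-coding names (54.4%), but at a median percentile of 41.4.

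Genes that make, bind and remove caps had middling signals. Of 16 genes of cap synthesis and binding, 15 were detected (93.8%, against 54.4% of protein-coding names) at a median percentile of 62.0. SRRT, a partner of the nuclear cap-binding complex, stood at 5.35, 5.06 and 5.08 (5.16 ± 0.16), and the cap methyltransferases RNMT and TGS1 at 2.98 ± 1.65 and 2.75 ± 0.46. EIF4E stood at 2.67, 2.67 and 2.19, and the cap-binding subunits NCBP1 and NCBP2 at 0.17 ± 0.54 and 0.97 ± 0.28. Of 20 genes that remove caps or degrade RNA from the 5′ end, 18 (90%) were detected at a median percentile of 56.0. The enhancer of decapping EDC4 led at 5.75, 3.74 and 4.01, followed by DCP1A at 4.02 ± 0.75. The decapping enzyme DCP2 stood at 0.29 ± 0.67 and the exonuclease XRN1 at -0.68 ± 0.79. NUDT16, the enzyme given to the cells of the other arrays, had 2 probes and neither was above background on any mock array.

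Some names reached the top by a probe that disagreed with the gene's others. GPR155 stood at 10.08 by 1 probe, while its other 2 read -3.38 and -3.18. ZNF865 stood at 10.43, against -1.50 and -3.14 for its other 2 probes. ADAMTS7 read 10.02 by its brightest probe and -4.50 by its dimmest, and AS3MT 9.71 and -3.62. Of 43 names among the highest 100 that had at least 2 probes, 11 (25.6%) had a probe not detected on all 3 arrays, against 51.8% of all 5046 detected names with at least 2. Of the 28 ribosomal protein genes among them it was 4, and of 7 names in none of the lists it was 5.

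At the other end of the detected range lay CT45A1 (-2.78 ± 0.71), XLOC_002085 (-2.72 ± 0.56), ZNF501 (-2.63 ± 0.75), GPR18 (-2.60 ± 0.58) and the unnamed probe A_33_P3244269 (-2.59 ± 0.90). Just outside the rule, with 2 arrays above background and the highest means among such names, were MLL4 at 1.06, -2.03 and 0.07, PIAS3 at 1.26, -1.96 and -0.58, and MAN2C1 at 1.22, -1.94 and -0.81. All 3 missed on replicate 2, the dimmest array. They read higher than many detected genes, so absence from the detected set is not an order of signal.

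The 3 arrays ordered the genes alike but not equally. Across the 13703 genes, which are not independent, the levels correlated at Pearson's r of 0.883 between replicates 1 and 2, 0.884 between 1 and 3 and 0.953 between 2 and 3. After the median difference was removed, 44.3%, 43.2% and 20.3% of genes in these pairs lay more than 1 log2 unit apart. The arrays shared 10 of their highest 20 names, 60 of their highest 100 and 720 of their highest 1000. Probes printed 10 times on an array showed a median SD of 0.07 between spots and 0.62 between arrays (523 probes). The first covers repeat spots on a slide only, and the second also covers the separate eluates, labellings and slides. Each array lay on a slide of its own, so the slide, the scan and the replicate cannot be told apart. Among genes in the upper 50% by signal, the widest spread was in ANP32E, a histone chaperone of H2A.Z, at 2.64, 7.41 and 5.73, followed by HMGN5, SNORD105B, PPP4R2 and XLOC_l2_000917. The narrowest were AK091697 at 5.95, 5.92 and 5.95, KIR3DL2, PUS7, IFI16 and POU3F2.

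Several lists differed between the arrays in their median. Of those given here, the replication-dependent histones and the ribosomal, m3G-capped and polymerase III RNAs did so in every detected member on replicates 1 and 2. The others did so in part of their members. Deviations are given here from a gene's mean over the 3 arrays, after the median of all genes (0.06, 0.07 and -0.15) was subtracted. Bright genes of any kind also deviated: the 1371 genes above percentile 90 had medians of -0.04, 0.42 and -0.37 on replicates 1 to 3. No adjustment for signal was made. Replication-dependent histones, 54 of 63 of them above percentile 90, had median deviations of -0.94, 1.19 and -0.22. All 63 were below on replicate 1 and above on replicate 2. The 3 ribosomal RNAs had -1.16, 1.12 and -0.03. The m3G-capped RNAs had -0.74, 1.11 and -0.34, with 0, 5 and 0 of 5 above 0. Polymerase III RNAs had -0.55, 0.93 and -0.36, with 0, 5 and 1 of 5 above 0. C/D box snoRNAs had -0.83, 0.73 and 0.08, with 11, 106 and 69 of 118 above 0. The SR and hnRNP protein lists were also low on replicate 1, at -0.79 (2 of 11 above 0) and -0.55 (7 of 24). The snRNP proteins were not, at 0.03, 0.64 and -0.68 on replicates 1 to 3, with 10 of 19 above 0 on replicate 1. Zinc finger genes stood at -0.63, 0.14 and 0.52, with 104, 219 and 293 of 371 above 0. In contrast, the median on replicate 1 was high for glycolysis (0.75, -0.45 and -0.31), for HLA and antigen presentation (0.66, -0.03 and -0.48) and for T-lineage markers (0.52, -0.35 and -0.28). On that array 16 of 18, 10 of 13 and 12 of 14 of their genes were above 0. Ribosomal protein genes stood at -0.14, 0.74 and -0.57, but the 0.74 on replicate 2 became -0.0044 with quantile normalization and -0.10 with the authors' value table, so its direction depends on the scaling; that of the TOP list on replicate 2 went from 0.37 to -0.06 with both.

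The position of a probe in its transcript moved with these differences. The files list a start for each probe without defining it, and it is read here as the offset from the 5′ end of the transcript; for U4atac and U3 RNA the listed start of the probe nearest the 3′ end of the RNA plus its 60 bases gives the RefSeq length of 130 and 217. Over detected genes with a RefSeq transcript, probes with a listed start of up to 300 bases had median deviations of -0.55, 0.70 and -0.18 (613 genes), and those with a start beyond 4000 bases had 0.27, -0.46 and 0.24 (1495 genes). The median listed start was 274 bases for histone probes and 15 for those of C/D box snoRNAs. With the median of each position group removed, the histone deviations were -0.60, 0.59 and 0.06 and those of C/D box snoRNAs -0.27, 0.03 and 0.26. Those of glycolysis were 0.64, -0.29 and -0.23, and those of SR proteins -0.86, 0.44 and 0.23. The base composition of the probe moved too: replicate 1 stood at 0.39 for probes with over 50 and up to 55% G or C and at -0.23 for those with over 35 and up to 40%. With the median of each composition group removed, the histone deviations widened to -1.28, 1.30 and 0.00, while those of C/D box snoRNAs were -0.88, 0.69 and 0.04 and those of glycolysis 0.65, -0.44 and -0.26. The 2 adjustments were not made together.

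**Figure D5:**
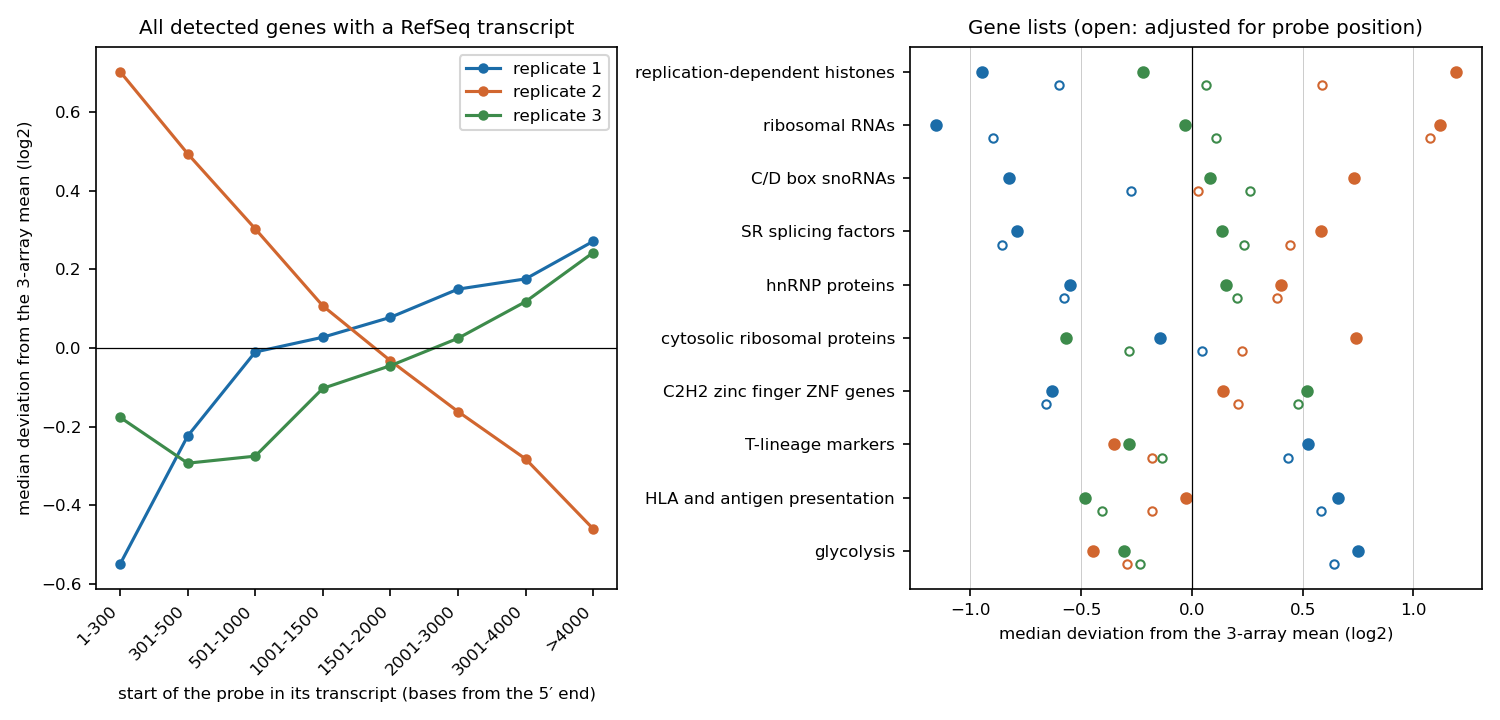
Left, median log2 deviation of each replicate from the 3-array mean by the listed start of the probe in its transcript. Right, the same deviation for 10 gene lists, as measured (filled) and with the median of each position group removed (open); histones run from -0.94 on replicate 1 to 1.19 on replicate 2, and from -0.60 to 0.59 once adjusted.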

How the data were processed

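The 3 mock arrays of MOLT-4 cells were analysed. The deposited scanner files hold fluorescence intensity per spot. Feature Extraction 10.7.3.1 wrote them for array design 039494 from Agilent, with probe coordinates on hg19, per the file headers; the processed intensity used is background-corrected within the array, not scaled between arrays, with surrogates for spots near background. The submitters' processing notes also name limma. The authors' deposited value table is on a log2 scale (4.04 to 18.4 over the mock arrays); how it was made is not given in the sources used here. Its order equals that of the median intensity of each spot less its median background (Spearman's rho 1.0 on each array), and it served as an alternative.

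Control spots and outlier spots (309 to 372 per array) were left out. Spots of a probe were averaged on the log2 scale, and a probe counted as detected on an array where over 50% of its usable spots were well above background. The 75th percentile of an array was subtracted from its log2 values. Of 36335 names, 1913 are probe IDs without a gene name (610 detected). Of 29180 probes with a RefSeq accession, 28162 matched RefSeq (GRCh38.p14), used for current symbols, gene types and transcript starts; 2992 of the 20503 gene names so matched have another current symbol.

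Named were the 20 highest and 5 lowest genes, the 5 with the largest and the 5 with the smallest SD in the upper 50%, the 3 highest of each list and up to 3 members of it above background on no array, without genes on the Y chromosome; others are named as members of a list or as chosen after their values were seen. Of 56 lists, 10 were added after the values were seen, and 2 further genes were looked up then. The members and lists were chosen with earlier results of these data known. Alternatives used normexp in limma 3.58.1 (R 4.3.3). Other steps ran in Python 3.11.15 with pandas 2.3.3 and numpy 2.4.6, and were tested on simulated data. A few genes and sequences are not reported here.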

Additional observations from a re-analysis of the deposited data

How the results depend on the processing

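No paired analysis was possible because a single group of 3 arrays was used. The count of detected genes (13703) became 19417 when a spot had only to be positive and significant, 16952 when 2 of the 3 arrays sufficed, and 13703 with outlier spots kept. It was 13753 to 16716 with 1 array left out, highest without replicate 2. Of the 46 lists not added later, 31 had a larger detected share than all genes, and 31 to 33 under these settings. A median percentile above 50 was found for 28 lists, and for 26 to 32 under all settings tried, which add the mean of a gene's detected probes, normexp, quantile normalization and the authors' value table. The correlations between arrays stayed between 0.880 and 0.955. Of the 20 leading names, 12 remained with the mean of a gene's probes and 17 to 20 otherwise. Of the list medians, 96 of 520 values under the alternatives moved by more than the spread between arrays, and 31 of 336 detected counts by over 1.5 times. Of the deviations, 87 of 816 moved by more than the spread between a list's genes or, once adjusted for position or composition, turned sign. The median percentile rose as far as 53.0 for C/D box snoRNAs (37.8), 60.01 for H/ACA snoRNAs (45.1), 64.7 for scaRNAs (50.2), 60.3 for interferon response genes (46.4) and 52.6 for zinc finger genes (41.4), all where a spot had only to be positive and significant. It fell as far as 48.6 for nuclear long noncoding RNAs (73.6), 67.0 for polymerase III RNAs (85.2) and 45.4 for immediate-early genes (50.8), whereas ribosomal proteins stayed at 98.9 to 99.5 and histones at 97.8 to 98.4. Dim genes are limited by replicate 2, on which 39.1% of spots were above background.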
